A study of Mus musculus with 3 samples.

Results

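The genes examined here are those that encode histones, the proteins around which DNA is wound in chromatin. They were taken as the protein-coding genes whose symbol begins with Hist1h to Hist4h, H2af, H3f3 or H1f in the GENCODE annotation, which gave 82 genes of the 21856 protein-coding genes listed. Of these, 67 were replication-dependent cluster genes (Hist1 to Hist4) and 15 were variant genes (H2af, H3f3 and H1f). RNA-seq was performed on 3 myoblast lines, numbered 66, 67 and 72, which were grown from satellite cells of mouse-mouse chimeras. Satellite cells are the stem cells of skeletal muscle, and myoblasts are their dividing progeny in culture. All 3 lines carried the Dmdmdx allele after CRISPR/Cas9 editing of the dystrophin gene and the Pax7-nGFP reporter, a nuclear GFP driven by the Pax7 promoter, and per the study's methods they descend from edited iPSCs injected into Pax7Cre/ERT2; Rosa26lsl-DTA host blastocysts, whose satellite cells tamoxifen can ablate. The lines form 1 group (n = 3), since the sample labels do not say which chimeras had been given tamoxifen, and no other condition was analysed here. The values therefore describe these lines, and the spread given (SD) is the spread between lines.

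Core histones (H2A, H2B, H3 and H4) form the nucleosome, and H1 binds the linker DNA between nucleosomes. Cluster genes supply the bulk of histone protein during S phase, and their mRNAs typically end in a conserved stem-loop in place of a poly-A tail. Variant genes such as H2afz and H3f3a are expressed outside S phase as well and give polyadenylated mRNAs. The libraries were made from RNA enriched for poly-A tails, so a cluster mRNA that ends at its stem-loop would be poorly captured, and the levels of cluster genes given here are levels in poly-A-enriched RNA. The part of this step in the levels was not tested.

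The libraries held between 66972426 and 73274315 estimated counts. The authors deposited these per transcript along with TPM, the count divided by the effective transcript length and scaled to 1000000 per library, and both were summed per gene here. All 5 myoblast markers examined were at 10 TPM or more in every line, with means of 690 TPM for Myod1, 494 for Des, 288 for Itga7, 144 for Pax7 and 109 for Myf5, the lowest. None of the 6 markers of other cell types reached that level, of which Ly6a was highest at 3.18 TPM, followed by Pecam1 at 0.423 and Pdgfra at 0.406 TPM, and Lum was at 0 in every line. Dcn (0.040 TPM) and Ptprc (0.025 TPM) were over 2-fold apart between lines. Fewer cells of a type and less RNA per cell cannot be told apart in bulk RNA.

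The stem-loop of the cluster mRNAs was searched in every annotated transcript, because it marks the end at which these mRNAs are normally cut. It was present in a transcript of 46 of the 67 cluster genes and of 1 of the 15 variant genes, H2afx. Among 101131 transcripts of other protein-coding genes, 16 (0.0158%) held it. The stem-loops below are those of the 3 cluster genes with both a stem-loop and the most counts, of 1 cluster gene whose transcript stops close behind it, of an H4 gene with the second most frequent form, and of H2afx. Each is printed 5′ to 3′ on the strand of the gene as read from GRCm38, and the capitals mark the 16-base stem-loop.
Hist1h1c: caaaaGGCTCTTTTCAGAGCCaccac
Hist3h2a: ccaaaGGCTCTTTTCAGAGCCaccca
Hist1h4i: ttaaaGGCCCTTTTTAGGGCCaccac
Hist2h2aa2: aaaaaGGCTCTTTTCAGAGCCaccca
Hist1h4h: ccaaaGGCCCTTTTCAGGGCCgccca
H2afx: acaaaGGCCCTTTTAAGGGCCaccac

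The stem-loops (capitals) lie in the 3′ UTR of single-exon transcripts, at chr13:23739512-23739527 for Hist1h1c (plus strand), chr11:58955172-58955187 for Hist3h2a (plus strand), chr13:22040966-22040981 for Hist1h4i (minus strand), chr3:96239784-96239799 for Hist2h2aa2 (minus strand), chr13:23531458-23531473 for Hist1h4h (plus strand) and chr9:44335240-44335255 for H2afx (plus strand). The form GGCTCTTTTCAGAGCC was shared by 26 cluster genes of the H1, H2A, H2B and H3 families. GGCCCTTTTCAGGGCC was found in 7 genes, all of them H4 genes, and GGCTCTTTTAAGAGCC in 6 genes. The 16 bases of H2afx occurred in no cluster gene.

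The variant genes held nearly all of the histone signal. Summed TPM was 3060, 2952 and 2984 for the variant genes in lines 66, 67 and 72, against 141, 137 and 145 for the cluster genes. The cluster genes thus made up 4.49% ± 0.13 (SD, n = 3) of histone TPM, and the sums of the classes did not overlap in any line. On the log2(TPM + 1) scale the median level was 0.95, 1.0 and 0.97 for the cluster genes and 5.30, 5.03 and 5.24 for the variant genes, a difference in median of 4.22 ± 0.17 (SD, n = 3). The median over all protein-coding genes was 1.60 ± 0.06, above that of the cluster genes and below that of the variant genes. The level of 10 TPM (mean over lines) was reached by 2 of 67 cluster genes and by 10 of 15 variant genes, where the share over all protein-coding genes was 38.0%. At a mean of at least 1 TPM these counts were 34 and 10, against 53.6% of all protein-coding genes. The remaining 33 cluster genes were below 1 TPM.

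**Figure D1:**
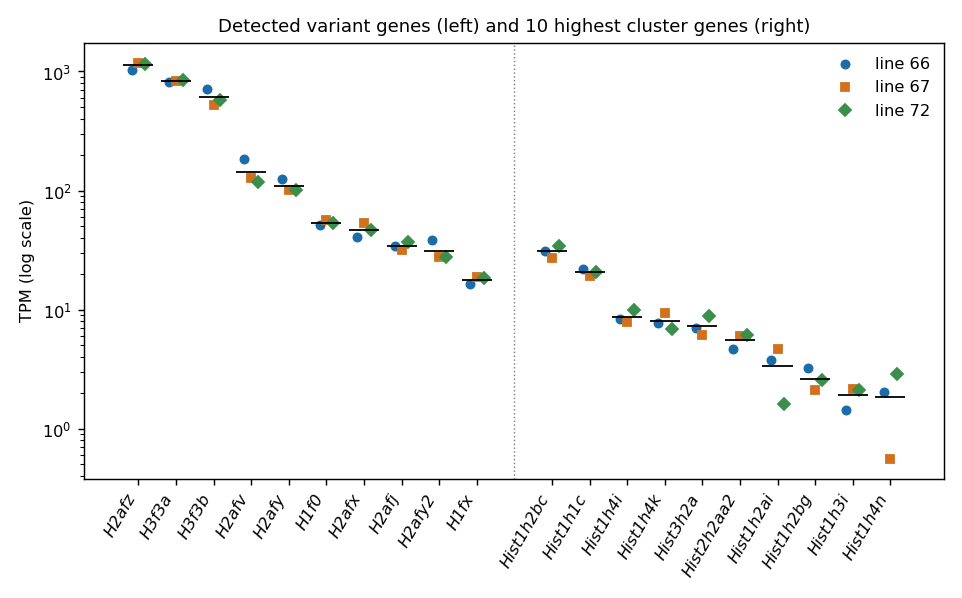
TPM (log scale) of the 10 variant genes detected and of the 10 cluster genes with the highest mean, with a symbol per line (66, 67 and 72) and a bar at the mean. H2afz, H3f3a and H3f3b lie at 522 TPM or more in every line, and the highest cluster gene, Hist1h2bc, lies between 27.1 and 34.3 TPM.

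The plot of levels by line shows that the classes overlap, since H1fx lies below Hist1h2bc and Hist1h1c. H2afz, H3f3a and H3f3b alone held 81.6% ± 1.19 (SD, n = 3) of the TPM of all 82 genes.

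**Figure D2:**
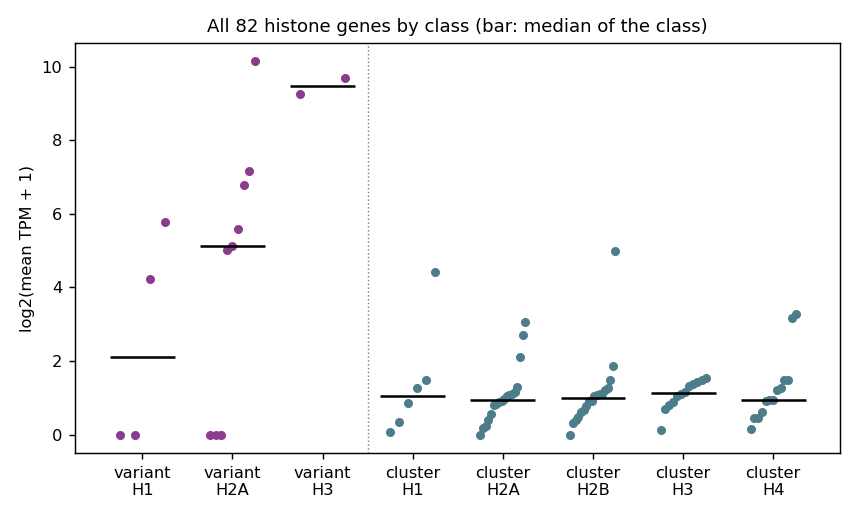
Level of each of the 82 histone genes as log2 of the mean TPM over 3 lines plus 1, split by class and family, with a bar at the median of each. Medians of the 5 cluster families lie close together near 1, and the 5 variant genes at 0 are H1 and H2A variants.

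H2afz encodes H2A.Z, an H2A variant found at promoters, and was the histone gene with the highest TPM. Its level was 1038 TPM in line 66, 1190 in line 67 and 1158 in line 72. H2afv encodes the second H2A.Z protein, and the translated coding sequences differ at 3 of 128 residues. Its level was 184, 127 and 119 TPM, so H2afz was 5.66, 9.40 and 9.75 times as high as H2afv in lines 66, 67 and 72. H2afz depended on short transcripts: transcripts under 400 bases held 41.8% ± 1.58 of its TPM but 16.1% ± 0.768 of its estimated counts. Without them, H2afz was at 600, 677 and 694 TPM, below H3f3a in every line. The ratios of H2afz to H2afv given above include these short transcripts and are lower without them.

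H3f3a and H3f3b encode histone H3.3, the H3 variant laid down outside replication, and their proteins are identical over all 136 residues. H3f3a was at 817, 825 and 846 TPM and was among the members that varied least (829 ± 15.1). H3f3b was at 715, 522 and 577 TPM, lower than H3f3a in every line and highest in line 66. H3f3b thus gave 46.7%, 38.7% and 40.6% of H3.3 TPM. Per read rather than per length the order was the opposite, since the main transcript of H3f3b has 1993 bases and that of H3f3a has 888. H3f3b had 695, 507 and 541 counts per 1000000 counts (CPM), and H3f3a had 371, 371 and 375. H2afz was then the lowest of the 3 genes in every line, at 316, 355 and 341 CPM. Both H3.3 genes together exceeded the 12 cluster H3 genes 118-fold, 90.3-fold and 94.7-fold in summed TPM, and 244-fold, 175-fold and 176-fold in summed counts. The H3.3 protein differs from that of the cluster gene Hist1h3b at 4 of 136 residues.

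The other H2A variants were at intermediate levels. H2afy and H2afy2 encode the macroH2A proteins, which carry a large domain behind the histone fold. H2afy was at 126, 101 and 101 TPM and H2afy2 at 38.5, 27.5 and 27.4 TPM, both highest in line 66. H2afy has an alternative pair of exons, of 91 bases (chr13:56088252-56088342) and of 100 bases (chr13:56089758-56089857), which give macroH2A1.1 and macroH2A1.2. The transcript with the shorter exon held 48.6%, 50% and 48.8% of the TPM of the full-length coding pair, with 30.3, 25.4 and 22.6 TPM against 32.0, 25.4 and 23.7 TPM for the longer. These transcripts share most of their sequence, so the split rests on the reads over the parts that differ, which include the 5′ UTR as well as these exons, and the rest of the gene's TPM was assigned to transcripts annotated with no coding sequence.

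H2afx encodes H2A.X, which is phosphorylated at DNA breaks, and was at 41.0, 53.1 and 46.6 TPM. It has a stem-loop like a cluster gene, but its annotated transcript runs on for 822 bases past it and holds a poly-A signal (AATAAA or ATTAAA) within its last 60 bases. H2afj, which encodes the H2A variant H2A.J, was at 33.9, 31.6 and 36.8 TPM. Of the linker histones, H1f0, which encodes the H1.0 protein of slowly dividing and differentiated cells, was at 50.9, 56.7 and 52.9 TPM. H1fx was lower, at 16.5, 18.7 and 18.3 TPM. H1f0 was 2.33, 2.97 and 2.54 times as high as Hist1h1c, the highest cluster H1 gene.

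In the order of levels, the ranges of H2afz, H3f3a and H3f3b over the lines did not overlap in TPM. The ranges of H2afv and H2afy overlapped, as did those of H1f0 and H2afx. H2afj, H2afy2 and the cluster gene Hist1h2bc overlapped each other too. Hist1h1c was above H1fx in every pair of lines.

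The variant genes known from germ cells were not detected. H1foo (the oocyte linker histone), H1fnt (of spermatids) and H2afb1, H2afb2 and H2afb3 (short H2A variants of the testis) were at 0 in every line, which allows up to 3 counts per library. Of the cluster genes, Hist1h2aa and Hist1h2ba, testis forms of H2A and H2B, were at 0 in every line as well. Hist1h1t, the testis linker histone, had 3, 1 and 2 estimated counts, and Hist2h2ab had 2, 1.01 and 2.04, both at or under that limit. Hist3h2ba, an H2B cluster gene also counted here among the germ cell members, had 8, 27 and 6 estimated counts, above that limit in every line.

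The highest cluster gene was Hist1h2bc, an H2B gene, at 31.1, 27.1 and 34.3 TPM. Hist1h1c, which encodes a linker histone, followed at 21.8, 19.1 and 20.8 TPM. Together they held 36.4% ± 2.42 (SD, n = 3) of cluster TPM. Hist3h2a, an H2A gene outside the large cluster, was at 7.02, 6.08 and 8.75 TPM. Hist1h4i, an H4 gene, was at 8.39, 7.84 and 9.91 TPM. In both of these genes line 72 was highest and line 67 lowest. Hist1h2bg, another H2B gene, was at 3.22, 2.10 and 2.55 TPM. Hist1h3i had the highest mean TPM of the cluster H3 genes, at 1.44, 2.17 and 2.13 TPM, but with 18.8 to 25.7 counts and 6.8% of its words unique. Other H3 genes were above it in single lines, such as Hist1h3h in line 66 (2.498 TPM) and Hist1h3b in line 67 (2.31 TPM). By family, summed cluster TPM was 47.0 ± 3.06 for H2B (18 genes), 27.6 ± 0.399 for H2A (18 genes), 27.2 ± 1.39 for H4 (13 genes), 24.9 ± 1.29 for H1 (6 genes) and 14.3 ± 1.14 for H3 (12 genes). The medians of the families on the log2(TPM + 1) scale lay between 0.88 for H2B and 1.07 for H3.

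Few reads lay behind most of the cluster gene levels. At least 100 estimated counts in every line were found for 5 of the 67 cluster genes, namely Hist1h1c, Hist1h2bc, Hist3h2a, Hist1h4i and Hist2h2be. The same held for 10 of the 15 variant genes and for 52.0% of all protein-coding genes. Fewer than 100 counts in every line were found for 60 cluster genes. The whole set of cluster genes summed to 5336, 4602 and 5262 counts, against 129724, 106147 and 111181 for the variant genes. A short annotated transcript turns few counts into a higher TPM. Hist1h4k, an H4 gene annotated as 312 bases with nothing after its stop codon, was at 7.69, 9.43 and 6.84 TPM with 49.1, 54.9 and 40.9 counts. Hist3h2a, with 2146 bases, had 640, 506 and 736 counts at a like TPM.

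Reads of cluster genes were also hard to assign. The 13 H4 genes encode 1 protein, and the 12 H3 genes encode 3 when the longest coding sequence of each gene is taken. For Hist2h3c1 that is an annotated form of 181 residues, where the other cluster H3 genes have 136. The other transcript of Hist2h3c1 has 408 coding bases, as the other cluster H3 genes do. Of the 31-base words of a cluster gene, a median of 41.1% occurred in no other listed gene, against 92.3% for the variant genes. For 5 cluster genes no word was their own, among them Hist2h2aa2, an H2A gene at 4.62, 5.98 and 6.10 TPM, so its reads cannot be told apart from those of other genes, and the same held for its neighbour Hist2h2aa1. With the members restricted to those with at least 50% of their words unique, the cluster genes made up 2.68% of histone TPM.

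The annotated ends of the cluster genes were then set beside their counts. The main transcript of 23 cluster genes ran over 100 bases past the stem-loop, and these had a median of 31.8 estimated counts per line with 3 genes (Hist1h1c, Hist3h2a and Hist1h4i) at 100 counts or more in every line. The main transcript of another 23 ended within 100 bases of the stem-loop, and these had a median of 18 counts and no gene at 100 counts in every line. A further 18 genes had 1 exon and no stem-loop in the main transcript, with a median of 12.6 counts. Of these, 1 gene (Hist2h2be) was at 100 counts or more in every line. No base after the stop codon was annotated in 13 of the cluster genes. The 3 remaining genes, Hist1h2bc, Hist1h2bq and Hist1h2br, are spliced H2B genes with no stem-loop, and 1 of them (Hist1h2bc) was at 100 counts or more in every line. The spliced transcript of Hist1h2bc has exons at chr13:23684199-23684621 and chr13:23692176-23692908, with an intron of 7554 bases between them.

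In TPM the order of these classes was different. The median was 0.705 TPM for the genes with over 100 bases past the stem-loop and 1.14 TPM for those with fewer, whose transcripts are shorter (median 482 against 1249 bases). A poly-A signal within the last 60 bases was annotated in 15 cluster genes, of which 4 had at least 100 counts in every line (median 21.7 counts). Of the 52 without it, 1 gene, Hist1h2bc, reached that count (median 19.7 counts). Of the TPM on stem-loop transcripts, 93.7%, 96.1% and 98.2% was on transcripts annotated to run over 20 bases past the stem-loop. With 100 bases as the limit this share was 61.3%. Stem-loop transcripts that end within 20 bases are annotated only for Hist1h2ab, Hist1h2ap and Hist1h4m, at 11, 3 and 3 bases past it. The share at 20 bases is therefore largely fixed by the annotation. The values say to which annotated transcript the reads were assigned, not where the RNA molecules ended.

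**Figure D3:**
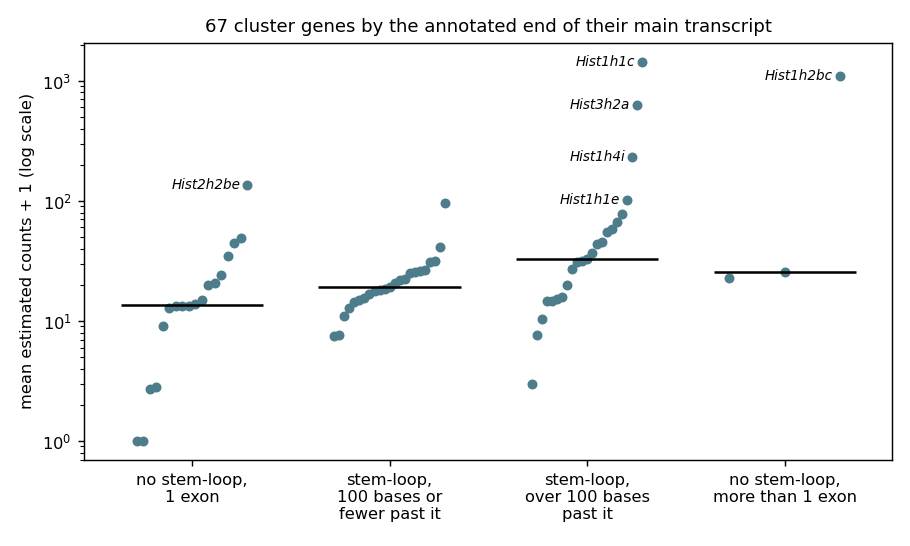
Mean estimated counts plus 1 (log scale) of the 67 cluster genes, grouped by the annotated 3′ end of their main transcript, with a bar at the median of each group. Named genes have a mean of at least 100 counts, and 4 of these 6 have a transcript running over 100 bases past the stem-loop.

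Promoters were searched for a TATA motif (TATAAA) and a CCAAT box (CCAAT) on both strands, from 250 bases before to 50 bases after the RefSeq start sites (GRCm38.p6). TATAAA was found in 35 of 63 promoters of 62 cluster genes (55.6%) and in 1 of 14 promoters of variant genes (7.1%), against 13.6% of 32851 promoters in all. CCAAT was found in 54 of 63 (85.7%) and 10 of 14 (71.4%), against 37.4% of all promoters. Some cluster genes lie head to head, such as Hist1h2bl and Hist1h2ai on chromosome 13, with annotated starts at 21716143 and 21716422. Their windows can overlap, so 1 match can count for both genes. A match describes the letters in this window and is not evidence of a bound factor.

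The 3 lines were compared next. Of the 12 members whose mean reached 10 TPM, 0 were over 2-fold apart between lines, where the share over all 8428 genes at that level was 2.47%. H2afv was the only member over 1.5-fold apart (1.54-fold, highest in line 66), while 9.79% of all genes were. The other members of that level were between 1.04-fold (H3f3a) and 1.41-fold (H2afy2) apart.

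Among members whose mean reached 1 TPM, 13 of 34 cluster genes (38.2%) and 0 of 10 variant genes were over 2-fold apart, against 7.19% of all genes at that level. These 13 cluster genes were all below 10 TPM, where the share was 13 of 32 (40.6%) against 16.9% of all genes between 1 and 10 TPM. They had means of 11.8 to 40.3 counts. Of cluster genes with a mean of 10 to 100 counts, 21 of 51 (41.2%) were over 2-fold apart, beside 38.2% of all 4442 genes in that range. The difference between these shares was not tested. Both of these ranges were chosen after the data were seen. Of the 13 genes, Hist1h2ai, an H2A gene, was at 3.75, 4.69 and 1.61 TPM, and Hist1h4n, an H4 gene, was at 2.04, 0.553 and 2.89 TPM. Lines 66, 67 and 72 had 28.6, 7.07 and 38.1 counts for Hist1h4n.

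The members highest in line 66 were partly on chromosomes whose genes were high in that line as a whole. Each line was set against the average of the remaining lines as a log2 ratio of TPM. By this measure H2afv (chromosome 11) was at 0.58 in line 66, -0.26 in line 67 and -0.38 in line 72. H3f3b, also on chromosome 11, was at 0.38, -0.31 and -0.10. The median of all 699 genes of chromosome 11 with at least 10 TPM was 0.27, -0.21 and -0.08. H2afy2 (chromosome 10) was at 0.49, -0.26 and -0.27, where the 427 genes of that chromosome had medians of 0.23, -0.11 and -0.13. H2afy (chromosome 13) was at 0.32, -0.17 and -0.17, while the median of its chromosome was -0.14 in line 66. Hist1h1c, also on chromosome 13, was highest in line 66 too, at 0.13, -0.16 and 0.03. Hist3h2a, a cluster gene on chromosome 11, was at -0.08, -0.38 and 0.42, with the sign of its chromosome's median in line 67 and not in lines 66 and 72. The part of the chromosome-wide shifts in these values was not tested.

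**Figure D4:**
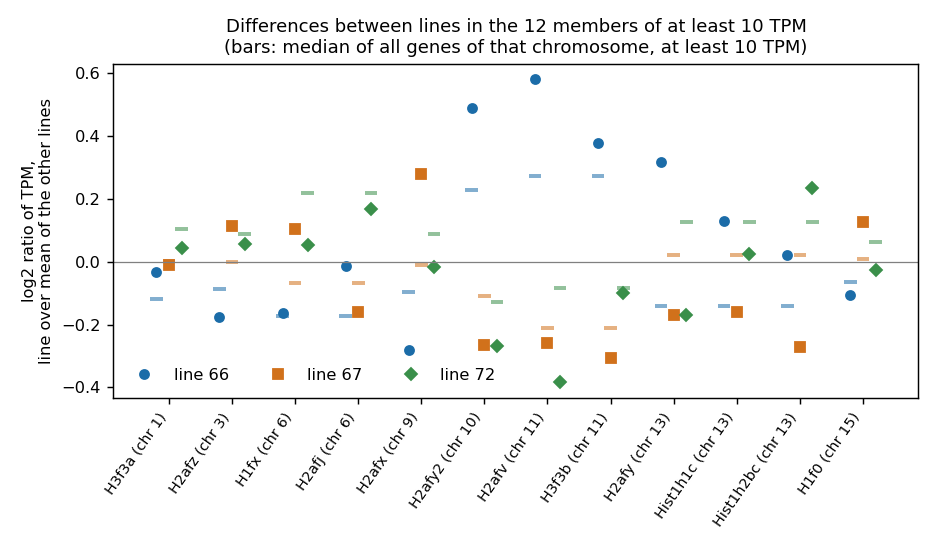
Log2 ratio of the TPM of each line to the average of the remaining lines for the 12 histone genes whose mean reached 10 TPM, ordered by chromosome, with a symbol per line. The short bars are the medians of all genes of that chromosome with at least 10 TPM, and H2afy2, H2afv, H3f3b, H2afy and Hist1h1c are highest in line 66.

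Genes that make, carry and process histones were examined as lists. Of 14 genes of histone mRNA 3′-end processing, 11 were at 10 TPM or more in every line, where the share over all protein-coding genes was 36.3%. Slbp, which encodes the stem-loop binding protein, was at 57.6, 68.8 and 64.9 TPM. The highest were Srrt at 150 ± 7.98 TPM, a cap-associated factor, Cstf2 at 87.1 ± 5.25 TPM, a cleavage factor, and Ncbp1 at 84.6 ± 5.05 TPM, a cap-binding protein. The lowest was Zfp473, which encodes a partner of the U7 particle that cuts histone mRNA, at 0.379 ± 0.034 TPM. Of 27 genes found in a list of histone chaperones and exchange factors, which also holds the histone gene Cenpa, 26 were at that level in every line. Nap1l1, an H2A-H2B chaperone, was at 1077 ± 71.1 TPM, Rbbp7 at 395 ± 23.4 TPM, and Anp32e, which removes H2A.Z, at 368 ± 37.9 TPM. Ubn2, a subunit of the HIRA complex that deposits H3.3, was lowest at 8.31 ± 0.660 TPM. Cenpa, which encodes the centromeric H3 variant and is no member by its symbol, was at 104, 125 and 122 TPM.

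The 19 S phase genes given were all at 10 TPM or more in every line, and 16 of them were lowest in line 66. Of all 8428 genes with a mean of 10 TPM or more, 47.7% were lowest in that line, as were 10 of the 14 processing genes and 19 of the 27 chaperone genes. Whether these shares differ was not tested. Rrm2, a subunit of ribonucleotide reductase, was at 321, 614 and 494 TPM, Pcna at 281, 366 and 380 TPM, and Rrm1 at 151, 204 and 205 TPM. The lowest was Pola1, a subunit of DNA polymerase alpha, at 18.9 ± 3.56 TPM. The cluster genes summed to 141, 137 and 145 TPM in lines 66, 67 and 72. Of 10 genes of cell cycle exit, 8 were at 10 TPM or more in every line (36.3% of all protein-coding genes), and 9 were lowest in line 66. Cdkn1a, the p21 inhibitor, was at 438 ± 67.4 TPM, Myog, a differentiation factor, at 234 ± 71.7 TPM, and Gadd45a at 135 ± 12.6 TPM, and the lowest was Rbl2 at 11.3 ± 0.666 TPM. Cdkn1c, the p57 inhibitor, was over 2-fold apart, as no other gene of the processing, chaperone, S phase and exit lists was, at 5.73, 17.0 and 48.0 TPM. The part of cell cycle state in the histone values was not tested.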

How the data were processed

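Libraries of 3 myoblast lines (66, 67 and 72) were used, each line as a replicate of 1 group, which leaves no conditions to test, and no p-value is given. Per the labels and the study's methods, RNA was enriched for poly-A tails and made into stranded libraries. The submitters' processing notes name bcl2fastq 2.20, fastp 0.20, kallisto 0.46.1 and GRCm39. The transcript annotation is not given in the sources used here. The authors deposited, per transcript, estimated counts, in which a read that matches several transcripts is split between them, and TPM.

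Of 121798 transcripts, 1112 (0.493% to 0.535% of counts) had no match in GENCODE M21 (GRCm38) and were left out. All 116 transcripts of the members had the annotated length. TPM and estimated counts were summed per gene (35562 genes), and levels were taken as log2(TPM + 1). CPM is the summed count per 1000000 counts. The main transcript of a gene is that with the highest mean TPM. Coordinates, coding sequences and stem-loops are from GRCm38, and promoters are from RefSeq. Estimated counts at 3 or fewer were taken as the limit of detection, which covers counting error only.

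The named genes are all variant genes, the 10 cluster genes with the highest mean TPM or the highest of each family, members at the limit, members over 2-fold apart at 10 TPM or more, and from each list the 3 highest, the lowest and those over 2-fold apart. Further genes that were named to explain a count were chosen after their values were seen. Members and lists were chosen with earlier results of these data known. For 1 of 28 chaperone symbols no entry was matched. The S phase list is given without 1 gene, which is not reported here, and its counts are over the remaining 19. The alternatives were a pseudocount of 0.1, a minimum of 1 TPM, CPM or estimated counts, a fold of 1.5, unique sequence, H2afx counted as a cluster gene, germ cell members left out, a limit of 100 bases past the stem-loop, TMM scaling (edgeR 4.0.16), DESeq2 1.42.0 size factors and leaving out each line. The count of genes over 2-fold apart was tested on simulated data only for genes of at least 10 TPM. The ranges of 1 to 10 TPM and of 10 to 100 counts were not covered by it. Python 3.11.15, pandas 2.3.3 and R 4.3.3 were used.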

Additional observations from a re-analysis of the deposited data

Results flagged for a closer look

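H3f3aos, a gene antisense to H3f3a that is not among the 82 histone genes, had 64.4, 43.2 and 46.2 estimated counts in lines 66, 67 and 72. It stands here because its lowest value, 43.2 counts, exceeded the detection limit of 3 counts. The libraries were stranded, but whether the counting used the strand is not given in the sources used here, so how far reads of H3f3aos and of H3f3a were told apart is not known.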

How the results depend on the processing

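The order of H3f3a and H3f3b turned in CPM. When single lines were left out, the gene counts stayed within 1.5 times. The shares and medians are means over lines, for which leaving out 1 of 3 lines cannot show stability. No paired analysis was possible because the lines form 1 group. The median level of cluster genes (0.97) was 0.087 with a pseudocount of 0.1, 0.35 in CPM and 1.35 with members of at least 1 TPM. That of variant genes (5.19) was 5.43 in CPM and 6.27 both with members of at least 1 TPM and without germ cell members. The difference in median (4.22) was 5.07, 5.08, 4.93 and 5.29 with a pseudocount of 0.1, in CPM, with members of at least 1 TPM and without germ cell members. The cluster share of histone TPM (4.49%) was 4.21% in CPM, 2.68% with members of at least 50% unique words and 5.99% with H2afx counted as a cluster gene. Cluster genes over the level limit numbered 34 at 1 TPM against 2 at 10 TPM. Members over 2-fold apart numbered 0, and 0 under TMM and DESeq2 scaling, but 13 from 1 TPM, 13 between 1 and 10 TPM and 21 between 10 and 100 counts, and 1 at a fold of 1.5. The share past the stem-loop (96.0%) was 98.8% in counts and 61.3% with a limit of 100 bases. The H2afy share of the shorter exon (49.1%) was 48.0% in counts, and the H3f3b share of H3.3 (42.0%) was 60.6% in CPM, where H3f3b was the higher gene. H2afz was at 657 TPM with transcripts of at least 400 bases, and the ratio of H3.3 to cluster H3 (101) was 198 in counts, both chosen after the data were seen. Few counts, short annotated transcripts and shared sequence limit the values of single cluster genes.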
